A study of Mus musculus with 6 samples.

Results

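The genes described here make, recycle and break down the choline and ethanolamine phospholipids of the liver. They are Gpcpd1, Pemt, Chka, Chkb, Pcyt1a, Pcyt2, Chpt1, Cept1, Etnk1 and Etnk2, chosen by gene symbol from these pathways. Of the 10 genes, 8 had a named row among 16331 gene rows, and Pcyt2 and Etnk2 were not analysed here. Gpcpd1 leads the group because an earlier look at the same arrays placed it among the genes that were lower in the knockout arrays, so the difference between genotypes is given for all 8 genes as a description. Intervals and counts of these genes past a threshold are printed beside the same over all rows and support nothing.

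The study compared liver RNA of wildtype mice (arrays 426, 428 and 430) with liver RNA of mice labelled Ugcg-deficient (arrays 427, 429 and 431, called knockout arrays after their titles). Ugcg encodes the enzyme that couples glucose to ceramide, the first step towards most glycosphingolipids. The labels give genotype and tissue. For strain, age, sex, feeding state, the deleted exons and the cell type in which the deletion was made, the sources used here give nothing. Nothing in the labels says that samples of a group came from separate animals, so the spread between arrays may be technical.

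Phosphatidylcholine is the main phospholipid of cell membranes, lipoproteins and bile. Hepatocytes build most of it from choline in the CDP-choline route, in which choline is phosphorylated, activated with CTP and joined to diacylglycerol, and the CDP-ethanolamine route builds phosphatidylethanolamine by the same steps. The liver also has a second source of phosphatidylcholine, the methylation of phosphatidylethanolamine by Pemt. When phosphatidylcholine loses both acyl chains, glycerophosphocholine remains, and Gpcpd1 splits it into choline and glycerol 3-phosphate, which can enter synthesis again.

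Each gene had 1 log2 expression value per array, and 1 log2 unit is a doubling of the signal. Array medians lay between 6.79 and 6.81, and the correlation between arrays across all gene rows, which are not independent replicates, ran from 0.988 to 0.994. Alb (albumin), the main secreted product of hepatocytes, read between 14.60 and 14.69 on the 6 arrays, up to the highest value in the table. The Ugcg row read 6.81, 6.85 and 6.87 on the wildtype and 7.12, 6.70 and 6.68 on the knockout arrays 427, 429 and 431. Its probes cannot be placed relative to the deleted exons, so it does not check the genotype labels, on which every direction below rests. Wildtype array 430 stood apart by its exocrine pancreas markers: the mean of the 11 measured genes of 12, each taken relative to its own mean over the arrays, was 2.11 there and between -0.50 and -0.32 on the other arrays. Knockout array 427 stood apart by its skeletal muscle markers (7 of 7 measured), at 0.70 against -0.16 to -0.08 elsewhere. Knockout array 431 had the highest adipose markers (5 of 7 measured), at 0.48 against -0.14 to -0.04 elsewhere.

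Gpcpd1 (Entrez gene 74182), a glycerophosphocholine phosphodiesterase, was lower on every knockout array than on every wildtype array. It read 8.43 on wildtype 426, 8.19 on wildtype 428 and 8.33 on wildtype 430, against 7.69 on knockout 427, 7.85 on knockout 429 and 7.70 on knockout 431. The lowest wildtype array lay 0.34 above the highest knockout array, so the groups did not overlap. The mean was 8.31 ± 0.12 in wildtype and 7.75 ± 0.09 in knockout (SD, n = 3 each), a difference of -0.57 (SE 0.086), or 0.675 times the wildtype level. Leaving out each array in turn gave differences from -0.63 to -0.51. The value was -0.56 without wildtype 430, the array with pancreatic transcripts, and -0.54 without knockout 427, the array with muscle transcripts. In RNA of whole liver, fewer cells of a type and less RNA per cell cannot be told apart. Over all gene rows this was the 35th lowest difference of 16331.

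**Figure D1:**
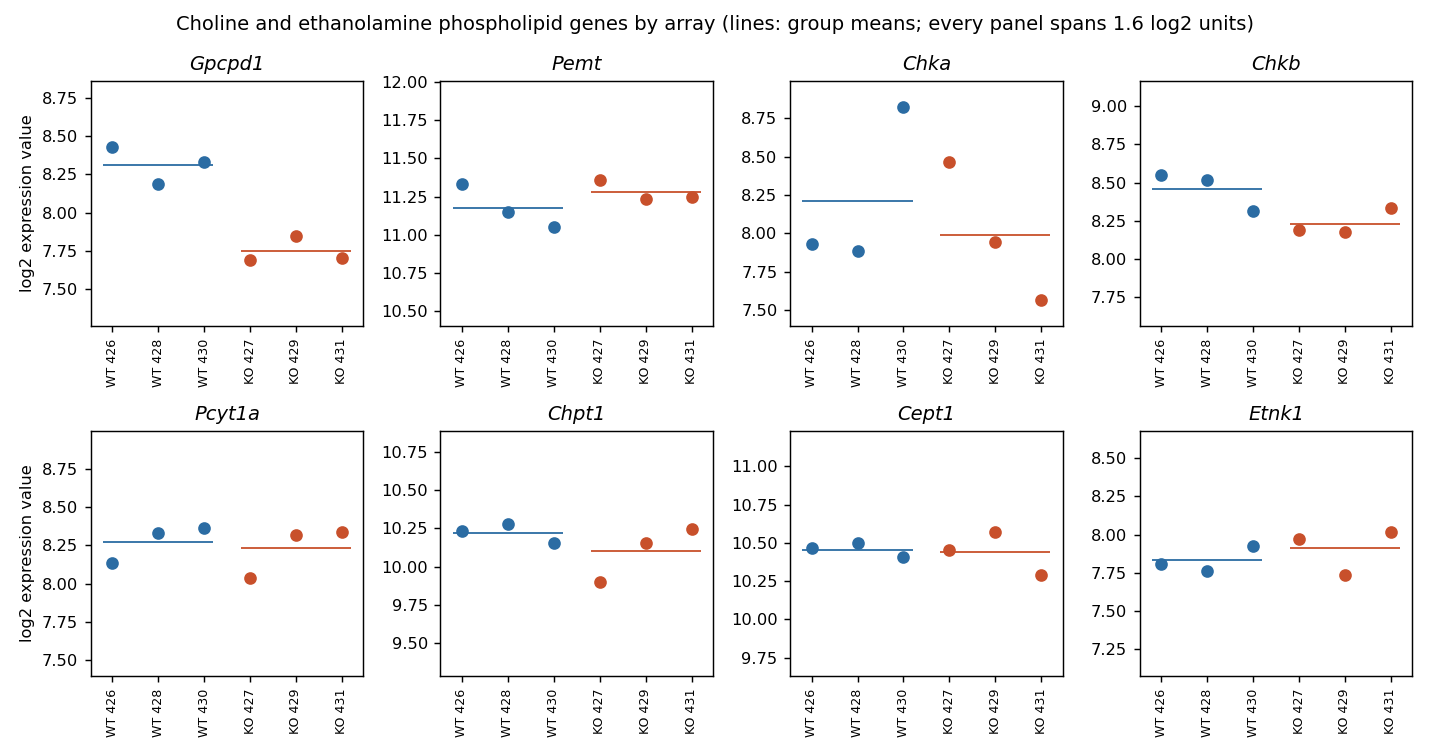
Log2 expression value (vertical axis) of each of the 8 measured genes on the 3 wildtype (WT, blue) and 3 knockout (KO, orange) arrays, with a line at each group mean; all panels span the same range of log2 units. Gpcpd1 is the gene whose groups do not overlap, and Chka has its highest values on WT 430 and KO 427.

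No other gene of the group separated the genotypes. Of the 8 genes, 1 had groups that did not overlap, where 9.57% of all gene rows had such groups, and 0 passed an adjusted p of 0.05 in limma, where 0.0245% of all rows passed. At an unadjusted p under 0.05 there were 2 of the 8 genes, Gpcpd1 and Chkb, beside 4.99% of all rows. Since the genes were chosen with this comparison known, nothing is read from these counts. The differences of 6 genes were below 0 and those of 2 were above 0, with a median of -0.08 against 0.01 over all rows. The median size of the difference, regardless of sign, was 0.112 for the 8 genes and 0.0625 for all rows.

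**Figure D2:**
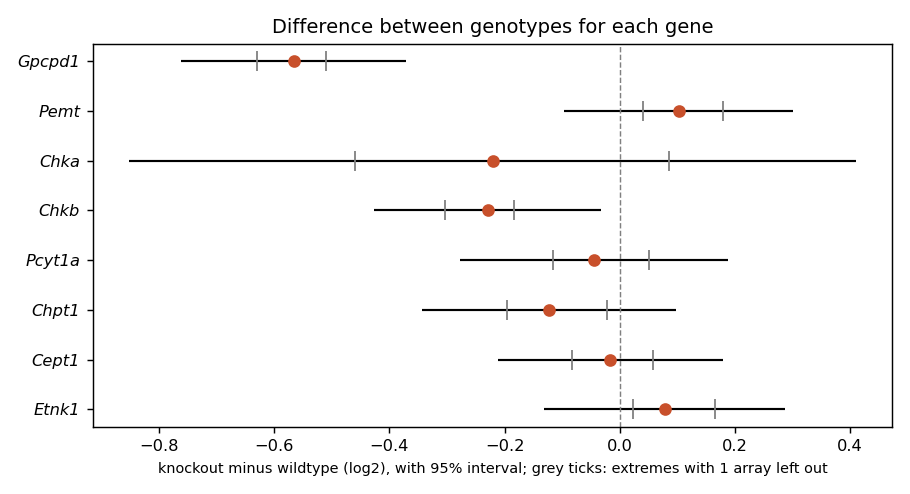
Knockout minus wildtype difference in log2 units (horizontal axis) for each of the 8 genes, with its 95% interval from limma (bar, n = 3 arrays per group, not adjusted for the number of genes or for their choice) and the extremes reached when 1 array was left out (grey ticks). Gpcpd1 sits at -0.57, and the interval of Chka is the widest.

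The choline kinases Chka and Chkb catalyse the same first step of the CDP-choline route, and both can also phosphorylate ethanolamine. They differed in how far arrays of 1 genotype lay apart, a measure that does not use the comparison of genotypes. Their upstream sequences are shown because the pair carries this contrast: the 250 bases before the RefSeq start site (build GRCm38.p6), 5′ to 3′ on the strand of the gene, with motif matches in capitals. Chka lies at chr19:3851523-3851772 on the plus strand and Chkb at chr15:89429928-89430177 on the minus strand.
Chka: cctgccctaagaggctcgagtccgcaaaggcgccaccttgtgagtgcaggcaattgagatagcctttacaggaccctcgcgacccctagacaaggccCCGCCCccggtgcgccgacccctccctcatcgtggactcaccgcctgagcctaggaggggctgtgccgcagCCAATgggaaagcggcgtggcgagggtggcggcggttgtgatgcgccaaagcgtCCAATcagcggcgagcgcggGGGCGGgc
Chkb: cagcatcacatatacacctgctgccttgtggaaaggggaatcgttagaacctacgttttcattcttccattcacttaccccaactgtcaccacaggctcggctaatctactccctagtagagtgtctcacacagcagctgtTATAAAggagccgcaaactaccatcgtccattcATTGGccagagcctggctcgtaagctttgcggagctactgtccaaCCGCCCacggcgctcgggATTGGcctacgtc
The motifs searched on both strands were the GC box (GGGCGG), the CCAAT box (CCAAT), the TATA box (TATAAA), the E-box (CACGTG) and the core of the cAMP response element (TGACG). Chka held 2 GC boxes and 2 CCAAT boxes and none of the other motifs. Chkb held 1 GC box, 2 CCAAT boxes and 1 TATA box, which begins 109 bases before the start site. Among 32817 upstream windows of the same length in the RefSeq table, 32.7% held a GC box, 33.8% a CCAAT box, 12.4% a TATA box, 6.02% an E-box and 17.7% the cAMP response element core. G and C made up 68% of the Chka window and 52.4% of the Chkb window. These matches describe the letters of the windows and show no binding. Gpcpd1 and Pcyt2 had no entry in the table.

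Chka read 7.93 on wildtype 426, 7.88 on wildtype 428 and 8.82 on wildtype 430, and 8.47 on knockout 427, 7.94 on knockout 429 and 7.56 on knockout 431. One array of each genotype was therefore high, and the groups overlapped throughout. The SD within genotype was 0.494, which lay at the 99.4th percentile of all gene rows, whereas the other 7 genes lay between the 52.2nd and the 77.3rd percentile. The mean was 8.21 ± 0.53 in wildtype and 7.99 ± 0.45 in knockout (SD, n = 3 each), a difference of -0.22 (SE 0.278) that turned to 0.09 without wildtype 430 and reached -0.46 without knockout 427. Without both arrays it was -0.15. The same 2 arrays had the highest pancreatic (wildtype 430) and muscle (knockout 427) markers, whose part in the Chka values was not tested.

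Chkb read 8.55, 8.52 and 8.31 on wildtype 426, 428 and 430, and 8.19, 8.18 and 8.33 on knockout 427, 429 and 431. Knockout 431 lay 0.02 above wildtype 430, and the groups overlapped by that much. The means were 8.46 ± 0.13 and 8.23 ± 0.09 (SD, n = 3 each), a difference of -0.23 (SE 0.087) with a range of -0.30 to -0.18 when 1 array was left out.

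**Figure D3:**
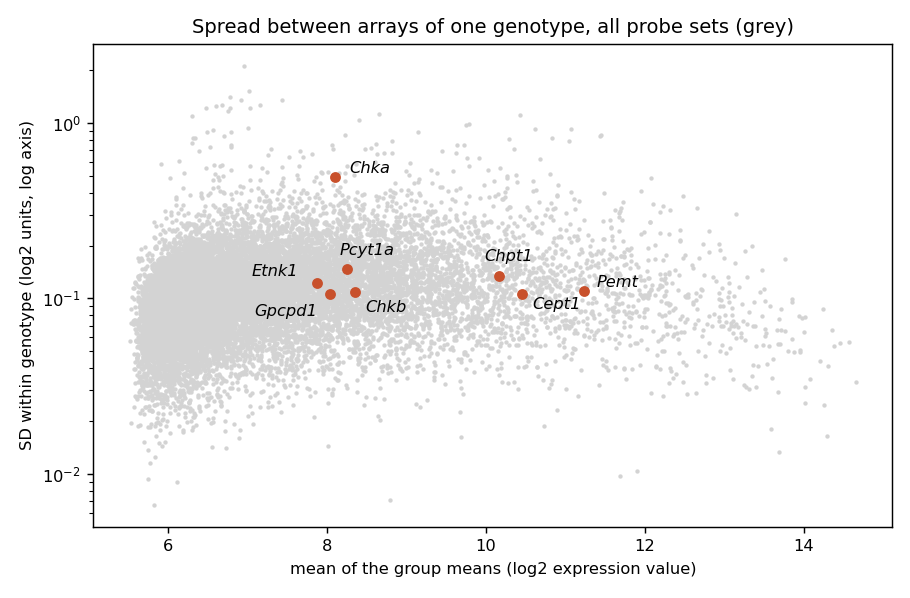
SD within genotype in log2 units (vertical axis, log scale) against the mean log2 value (horizontal axis) for all 16331 gene rows (grey) and the 8 genes (orange). Chka stands at 0.494 near the top of the cloud, and the other 7 genes lie between 0.106 and 0.147.

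The next enzyme, Pcyt1a, makes CDP-choline and sets the pace of the route; its ethanolamine counterpart Pcyt2 was not analysed here. Pcyt1a read 8.13, 8.33 and 8.36 on wildtype 426, 428 and 430 and 8.04, 8.32 and 8.33 on knockout 427, 429 and 431. One array of each genotype, wildtype 426 and knockout 427, was low, and the other values of the groups lay together. The difference was -0.05 (SE 0.103), and it was 0.05 without knockout 427.

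The last step belongs to Chpt1, which joins phosphocholine to diacylglycerol, and to Cept1, which accepts both the choline and the ethanolamine intermediate. Chpt1 read 10.23, 10.28 and 10.15 on the wildtype arrays 426, 428 and 430 and 9.90, 10.15 and 10.24 on the knockout arrays 427, 429 and 431. Knockout 427 was low, and the other knockout arrays lay within the wildtype range. The difference of -0.12 (SE 0.097) was accordingly -0.02 without that array, in which muscle markers were high; their part in it was not tested. Cept1 read 10.46, 10.50 and 10.41 on wildtype 426, 428 and 430 and 10.45, 10.57 and 10.29 on knockout 427, 429 and 431. The highest and the lowest of these 6 values both came from knockout arrays, around a difference of -0.02 (SE 0.086).

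Etnk1, a kinase that commits ethanolamine to the CDP-ethanolamine route, read 7.81, 7.76 and 7.92 on wildtype 426, 428 and 430. On knockout 427, 429 and 431 it read 7.97, 7.74 and 8.02. Both extremes were again knockout arrays, and the difference was 0.08 (SE 0.092). Pemt, the methyltransferase that turns phosphatidylethanolamine into phosphatidylcholine with S-adenosylmethionine as methyl donor, read 11.33, 11.15 and 11.05 on wildtype 426, 428 and 430 and 11.36, 11.23 and 11.25 on knockout 427, 429 and 431. The knockout arrays lay in or just above the upper part of the wildtype range, so the groups overlapped. The difference of 0.10 (SE 0.088) ran from 0.04 without wildtype 430 to 0.18 without wildtype 426.

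The surrounding pathway was read through 7 gene lists, which hold 79 genes beside the 10, of which 67 had a named row. In limma with Benjamini-Hochberg adjustment over all rows, 0 of the 67 passed in either direction, and 4 had an unadjusted p under 0.05, of which 2 were higher and 2 lower, beside 4.99% of all rows. Their groups did not overlap for 9 of 67, or 13.4%, beside 9.57% of all rows. The median difference was 0.01 for the 67 genes and 0.01 for all rows.

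In the glycerophosphodiesterase family, relatives of Gpcpd1 of which some cleave other glycerophosphodiesters or lysophospholipids, 6 of 7 genes were measured, Gpcpd1 included. None passed. Gpcpd1 alone had an unadjusted p under 0.05, which restates how it was chosen. The next in p was Gdpd3, a lysophospholipase D, which read 6.20, 6.32 and 6.33 on the wildtype and 6.17, 6.17 and 6.10 on the knockout arrays. These groups did not overlap, with a difference of -0.14 (limma adjusted p = 0.982).

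The list of choline and lysophosphatidylcholine uptake had 5 genes above 0 and 4 below, and 0 of 9 passed, with 1 (Mfsd2a) at an unadjusted p under 0.05. Mfsd2a, which carries lysophosphatidylcholine into cells, read 7.74, 7.51 and 8.01 on wildtype 426, 428 and 430 and 8.17, 8.04 and 8.45 on knockout 427, 429 and 431. All knockout arrays were above all wildtype arrays, by 0.46 on average (SE 0.141, limma adjusted p = 0.951), and by 0.35 without knockout 431. That array had the highest adipose markers. It also had the highest mean of the lymphocyte and neutrophil list (5 of 8 measured, 0.31 against -0.19 to 0.16 elsewhere). In that list the neutrophil genes S100a8 (7.76) and S100a9 (7.59) were highest on knockout 431. The lymphocyte genes Cd3e (6.77), Cd3g (6.04) and Nkg7 (6.19) were not. Kupffer cell and macrophage markers were lowest on the same array (8 of 8 measured, -0.34 against -0.06 to 0.24). The part of these markers in the Mfsd2a value was not tested. Slc44a2, a choline transporter-like protein, differed by -0.12 (limma adjusted p = 0.982).

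Choline that is not phosphorylated is oxidised to betaine, whose methyl groups feed the cycle that serves Pemt. Of 9 measured genes of this list 4 were above 0 and 5 below, with a median of -0.03, and 0 passed, with 0 also at an unadjusted p under 0.05. Dmgdh, which oxidises dimethylglycine, read 11.96, 11.90 and 12.00 on the wildtype arrays against 11.38, 11.80 and 11.88 on knockout 427, 429 and 431. The difference of -0.27 (limma adjusted p = 0.982) was -0.11 without knockout 427. Sardh, which takes the following step on sarcosine, differed in the other direction, by 0.21 (limma adjusted p = 0.982), and by 0.14 without knockout 431.

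Diacylglycerol is the acceptor for Chpt1 and Cept1, and the list of its supply held the widest range of differences of the 7 lists, with 6 genes above 0, 2 below and 0 of 8 past the threshold. At an unadjusted p under 0.05 there were 3 of 8, Gpat3, Lpin1 and Lpin2, beside 4.99% of all rows. Lpin1, a phosphatidate phosphatase that yields diacylglycerol, read 10.47, 10.83 and 11.46 on wildtype 426, 428 and 430 and 10.85, 9.15 and 8.97 on knockout 427, 429 and 431. Knockout 427 lay inside the wildtype range, whereas knockout 429 and 431 lay well below it. The difference was -1.26 (SE 0.451, limma adjusted p = 0.951), and it was -1.86 without knockout 427. Without both wildtype 430 and knockout 427, which left 2 arrays per group, it was -1.59 with a limma adjusted p of 0.0141. That fit left out the knockout array that lay inside the wildtype range. Without knockout 427 alone the limma adjusted p was 0.129, and over the 12 alternative settings it ran from 0.0141 to 0.9997. Wildtype 430 and knockout 427 were thus the highest arrays for Lpin1 as they were for Chka, although for Lpin1 wildtype 428 (10.83) was about level with knockout 427 (10.85). Gpat3, an acyltransferase at the start of glycerolipid synthesis, read 6.66, 6.50 and 6.36 on the wildtype and 6.79, 7.04 and 7.02 on the knockout arrays. These groups did not overlap, and the difference was 0.44 (SE 0.101, limma adjusted p = 0.670).

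**Figure D4:**
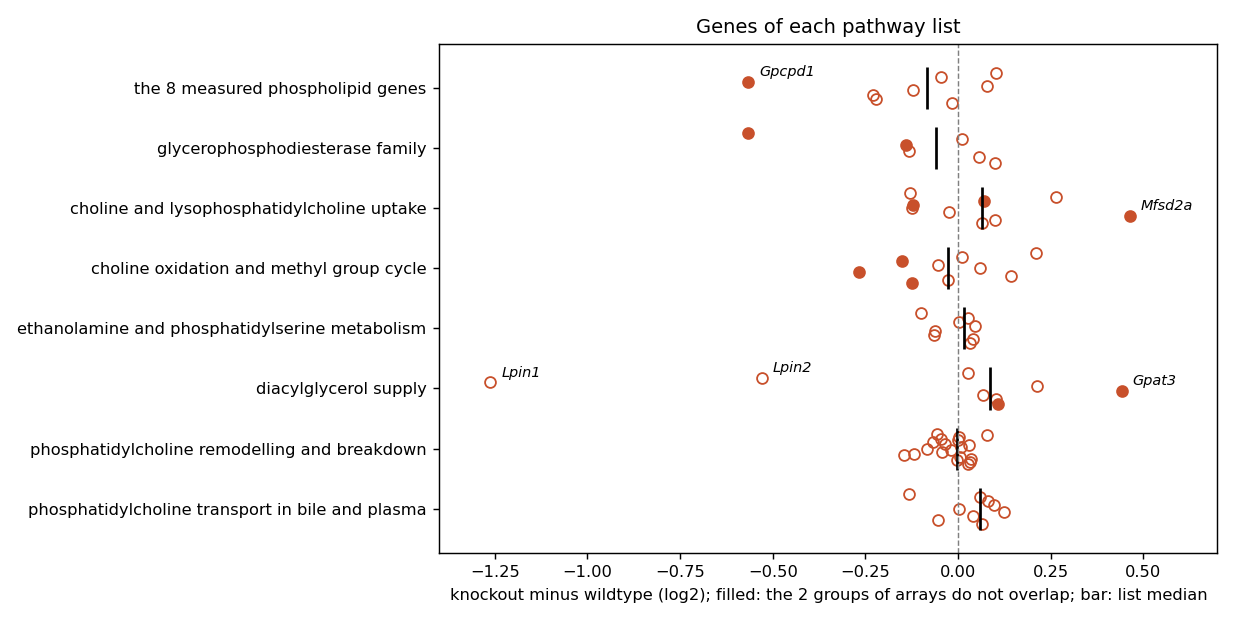
Knockout minus wildtype difference in log2 units (horizontal axis) of each measured gene, by list; filled points are genes whose groups of arrays do not overlap and bars are list medians. Lpin1 at -1.26 and Gpcpd1 at -0.57 lie lowest, and Mfsd2a at 0.46 and Gpat3 at 0.44 lie highest.

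The remaining 3 lists stayed close to 0, with 0 genes past the threshold and 0 at an unadjusted p under 0.05. In ethanolamine and phosphatidylserine metabolism (8 of 8 measured) differences ran from -0.10 to 0.05, with -0.10 for Sgpl1, which releases phosphoethanolamine from sphingosine phosphate, and -0.06 for Pisd, which makes phosphatidylethanolamine in mitochondria. In remodelling and breakdown (19 of 20 measured) they ran from -0.15 to 0.08, with -0.15 for Lypla1 and -0.12 for Lypla2, both acyl thioesterases also known as lysophospholipases. In transport through bile and plasma (9 of 10 measured) they ran from -0.13 to 0.13, with 0.13 for the phospholipase Lipg and -0.13 for Stard7, which brings phosphatidylcholine to mitochondria. The limma adjusted p was 0.982 to 0.987 for these 6 genes. Single arrays decided much of these small values. Pisd turned to 0.0042 without wildtype 428, Stard7 was -0.04 without knockout 427, and Sgpl1 (-0.05) and Lypla2 (-0.06) were smaller without wildtype 426. Lypla1 ran from -0.20 without knockout 427 to -0.098 without knockout 431, and Lipg from 0.06 without wildtype 430 to 0.19 without knockout 427.

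The genes whose 6 values followed those of Gpcpd1 most closely were found among 15036 named genes by the root mean square distance between profiles, each taken relative to its own mean. Tcta came first at 0.06 log2 units, then Crebrf, a regulator of the transcription factor CREB3, at 0.09, Tex12 at 0.11, Clec2d at 0.13 and the noncoding Snhg5 at 0.14. Tcta read 8.59, 8.23 and 8.44 on the wildtype and 7.93, 7.97 and 7.91 on the knockout arrays, so that wildtype 426 was highest and wildtype 428 the lowest wildtype array, as for Gpcpd1. All 5 genes were lower on every knockout array, by -0.53 to -0.38, which follows from how they were found. Among the other phospholipid genes the nearest was Chkb, at 0.21 and rank 252, and the farthest was Chka, at 0.44 and rank 14621.

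**Figure D5:**
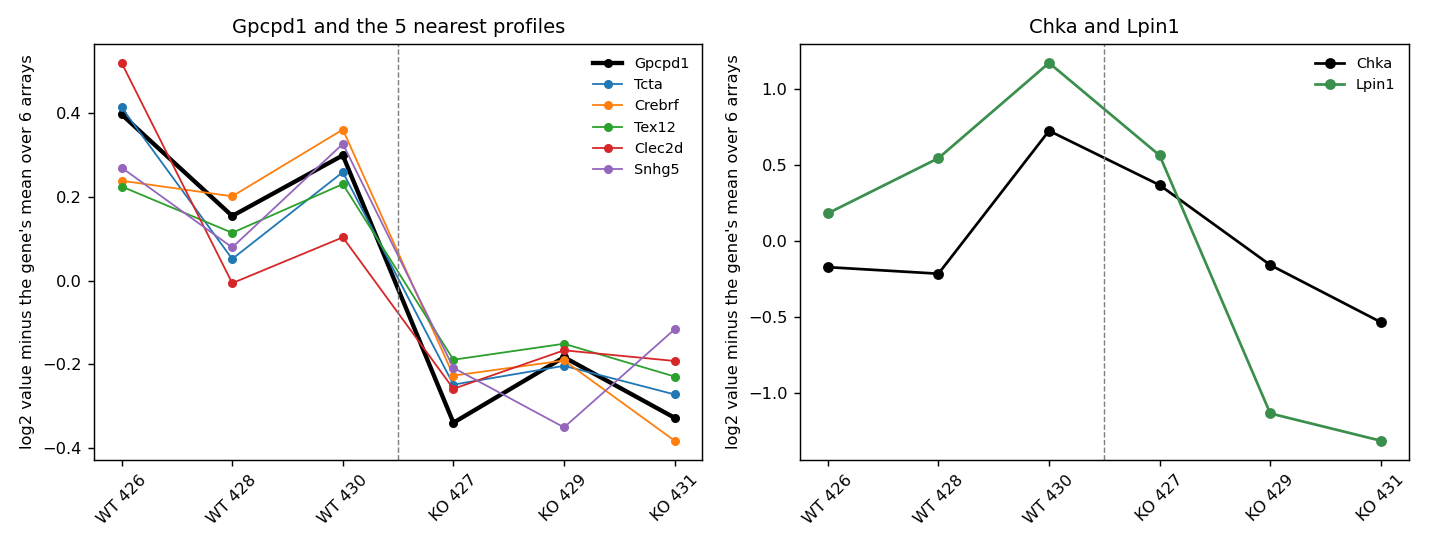
Log2 value minus the gene's own mean over the 6 arrays (vertical axis) for each array (horizontal axis; lines only link the values of a gene, and arrays of a genotype have no order). The left panel shows Gpcpd1 and its 5 nearest profiles, lower on all 3 knockout arrays; the right panel shows Chka and Lpin1, both highest on WT 430.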

How the data were processed

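RNA from 6 liver samples was labelled as biotinylated cRNA for Affymetrix arrays, per the labels' protocols. The deposited table holds 1 value per gene and array, read as log2 expression from its range (5.38 to 14.69). The sources used here do not name the authors' background correction, normalization or software. Of 16395 rows, 64 AFFX controls were left out, and 15644 of the other 16331 carried a gene symbol in the platform annotation. Genotypes were compared with limma 3.58.1 in R 4.3.3 (lmFit and eBayes, two-sided, Benjamini-Hochberg over all rows, threshold 0.05). This step was tested on simulated data with planted changes of 1 or 2 log2 units. The simulation does not cover smaller differences such as that of Gpcpd1. The median SE was 0.0847, and 3 arrays per group limit the precision.

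The genes and lists were chosen with earlier results of these data known. Named were the 10 genes, Ugcg, the 2 genes with the smallest p per list and the 5 profiles nearest to Gpcpd1. Alb, the white blood cell markers named beside Mfsd2a and a few genes among the closing observations fall outside this rule. Alternatives covered normalization (quantile or median), a filter at the 40th percentile of the mean, the variance model (intensity trend, robust), array weights and leaving out arrays. Upstream sequences come from RefSeq (GRCm38.p6). Plots were made with matplotlib 3.10.9 (Python 3.11.15).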

Additional observations from a re-analysis of the deposited data

How the results depend on the processing

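Under the 12 alternatives, 0 of the 8 phospholipid genes passed in any limma fit, with 1 or 2 at an unadjusted p under 0.05. Gpcpd1 kept its direction in all 12, from -0.63 to -0.51, as did Chkb (-0.30 to -0.18), Chpt1 (-0.20 to -0.02), Pemt (0.00098 to 0.18) and Etnk1 (0.02 to 0.16). For Gpcpd1, whose groups did not overlap, leaving out arrays cannot turn the sign. The filter and the variance model leave every difference as it was. The sign turned for Chka without wildtype 430, for Pcyt1a without knockout 427 (also when wildtype 430 was left out with it) and for Cept1 without wildtype 428 or knockout 431. No difference moved by more than the SD within genotype. In groups of this size, leaving out 1 array cannot move a difference that far. The filter and the variance model cannot move it either, so no stability is read from these settings. Of the 67 other pathway genes, 1 (Lpin1) passed without wildtype 430 and knockout 427 together, which left 2 arrays per group. In the other 11 fits 0 passed. Over all rows 4 passed, against 8 with array weights, 8 without wildtype 430 and knockout 427, and 0 to 4 when 1 array was left out (584 to 1135 at an unadjusted p under 0.05). No paired analysis was run, because the sample titles share no number between genotypes and name no pairs. Whether the samples were paired is unknown.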

Other observations

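Some pathway genes outside the naming rule were picked after their values were seen. Lpin2, a second phosphatidate phosphatase, read 9.36, 9.63 and 9.30 on wildtype 426, 428 and 430 and 9.46, 8.82 and 8.43 on knockout 427, 429 and 431. Knockout 427 again lay with the wildtype arrays, as it did for Lpin1, and the difference was -0.53 (SE 0.223, limma adjusted p = 0.982). It was -0.29 without knockout 431 and -0.81 without knockout 427. The groups also did not overlap for Aldh7a1 (-0.13) and Mat2b (-0.15) of choline oxidation and the methyl group cycle, for the choline transporter-like Slc44a3 (0.07) and for the acyltransferase Agpat1 (0.11), none of which passed.

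Of the 66 measured marker genes of all lists, 0 passed in limma, beside 0.0245% of all rows. An unadjusted p under 0.05 was found for 1 (Tat, of the hepatocyte list), beside 4.99% of all rows. A marker excess on 1 array widens the spread within its group, so these counts do not show equal cell make-up of the arrays. The mean of the hepatocyte list relative to each gene's own mean ran from -0.038 to -0.0036 on the wildtype and from -0.02 to 0.05 on the knockout arrays (7 of 8 genes measured). The Kupffer cell and macrophage list ran from -0.02 to 0.19 on the wildtype arrays. It read -0.06, 0.24 and -0.34 on knockout 427, 429 and 431, so its highest and lowest arrays were both knockout. All 8 of its genes had a difference below 0, beside 7756 of 16331 rows. Knockout 431 was the lowest array for each of them except Marco, and no count was made without it. The cholangiocyte list (6 of 7 measured) was highest on knockout 429, at 0.32, the stellate cell list (8 of 8) ran from -0.14 to 0.14 and the endothelium list (7 of 7) from -0.07 to 0.09. The red blood cell list (2 of 6 measured) ran from -0.14 to 0.09 and the white blood cell list (5 of 8 measured) from -0.19 to 0.31.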
